A study of Homo sapiens with 8 samples.

Results

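Described here are 8 genes of the NRF2 pathway in a human lymphoblastoid cell line (B cells immortalised with Epstein-Barr virus) exposed to hexavalent chromium. They were chosen by symbol, with earlier results of these data known. They are the regulators NFE2L2 and KEAP1, and the target genes NQO1, HMOX1, GCLC, GCLM, TXNRD1 and SRXN1. All were among the 23710 gene symbols in each count table, and all 8 passed the filter on low counts that left 12536 genes for testing. RNA was sequenced from 4 groups of 2 libraries each, all from 1 cell line grown in RPMI medium: control cells, cells given 5 µM hexavalent chromium for 24 h, and cells 3 or 7 days post treatment. The series text speaks of times after exposure began, and it is unclear from when the days were counted. No agent other than chromium is named in the labels, and all 4 groups share the viral immortalisation that a lymphoblastoid line carries. The labels call the libraries of a group biological replicates without saying which cultures they came from, so p-values measure only the spread between them. No unexposed cells of the later times were analysed here, so exposure and time in culture cannot be told apart. In bulk RNA, fewer cells of a type and less RNA per cell cannot be told apart either.

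NRF2, the protein that NFE2L2 encodes, is a transcription factor that answers oxidative and electrophilic stress. In resting cells KEAP1 holds NRF2 for ubiquitination by a CUL3 ligase and it is degraded by the proteasome. When reactive cysteines of KEAP1 are modified, newly made NRF2 escapes, pairs with a small MAF protein and binds antioxidant response elements near its target genes. Much of this control acts on the NRF2 protein, which RNA counts do not measure. Hexavalent chromium enters cells as chromate and is reduced inside them by ascorbate, glutathione and other thiols, and reactive oxygen species are among the products of that chemistry.

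The core of the antioxidant response element, TGACNNNGC, was searched on both strands in RefSeq promoter windows (assembly GRCh38.p14) that run from 250 bases before to 50 bases after a start site. The count tables were made on another build, GRCh37, so these coordinates place the sequences only. Of the 8 genes, 7 had windows in the table, 10 windows in all, and HMOX1 had none. The motif lay in 4 of these 10 windows and in 3 of the 7 genes. Over all 35116 windows of the table the share was 13.3%, and 16.1% of genes had it in at least 1 window. A match of these letters is a description of sequence and not evidence of binding. The stretches around the matches are shown because the genes that carry them, KEAP1, GCLM and TXNRD1, did not all share a pattern of expression. KEAP1 and TXNRD1 had similar patterns over the libraries, and GCLM differed from both. Capitals mark the match, and each stretch is written 5′ to 3′ on the gene's strand.
GCLM, chr1:93909446-93909474, minus strand: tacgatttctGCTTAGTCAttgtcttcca
KEAP1, chr19:10502784-10502812, minus strand: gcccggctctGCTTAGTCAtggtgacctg
KEAP1, chr19:10502807-10502835, minus strand: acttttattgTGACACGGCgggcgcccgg
TXNRD1, chr12:104286920-104286948, plus strand: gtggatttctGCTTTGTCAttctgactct
TXNRD1, chr12:104215670-104215698, plus strand: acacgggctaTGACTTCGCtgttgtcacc
TXNRD1, chr12:104215761-104215789, plus strand: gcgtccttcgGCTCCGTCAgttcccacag
The GCLM match lay 26 to 34 bases before its start site and read GCTTAGTCA, the motif on the opposite strand. The first KEAP1 stretch held the same 9 bases, 23 to 31 bases before the downstream of its 2 start sites in the table. The TXNRD1 match printed last spanned a start site.

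NQO1, whose level varied far more between libraries than that of GCLM, is shown for contrast with the whole 250 bases before its start site, in lower case because no match was found there or in the 50 bases after it.
NQO1, chr16:69726561-69726810, minus strand: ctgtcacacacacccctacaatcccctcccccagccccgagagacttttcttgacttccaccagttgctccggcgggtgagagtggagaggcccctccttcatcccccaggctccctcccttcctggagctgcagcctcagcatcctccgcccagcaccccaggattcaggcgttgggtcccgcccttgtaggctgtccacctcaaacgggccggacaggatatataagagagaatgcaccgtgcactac
No match lay in the window of GCLC either, which varied little like GCLM, or in those of NFE2L2 and SRXN1. Elements that lie farther from a start site are outside these windows.

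Library depth was even, at 9478459 to 11110830 gene counts. The libraries of replicate 1 at 3 and 7 days stood apart from the other 6. They had the lowest shares of reads under no feature (39.4% and 36.5%, against 44.4% to 51.5%), the largest ambiguous fractions of reads (1.05% and 1.12%, 0.608% to 0.781% elsewhere) and the most counts in the 20 highest genes (12.5% in each, against 8.88% to 9.65%). The part of these differences in the values below was not tested, and the fold changes of the 8 genes against control at 3 and 7 days are therefore given with and without both libraries. All 10 B cell markers reached 10 CPM (counts per 1e6 counts of the TMM-adjusted library size) in some library. Their summed level was 1439.85 to 1791 CPM in the 4 late libraries and 1961 to 2598 CPM in the 4 early ones, and 7 of 10 at 3 days and 8 of 10 at 7 days had lower estimates than in control. MS4A1 made up much of this sum, at 818 to 1638 CPM. The lowest estimates were those of CR2, the complement receptor CD21, at -1.06 and -0.99 and CD40 at -0.79 and -0.95 on the log2 scale. CD79A went the other way at 0.48 and 0.29, as did CD79B at 0.13 and 0.04, and BLK at 3 days at 0.16. The part of these marker differences in the members' late values was not tested. Of the other markers, 0 of 8 for T and NK cells and 1 of 8 for myeloid cells reached 10 CPM. For stromal or epithelial cells 0 of 8 did, and for erythroid cells 0 of 5. The exception was ITGAM, a leukocyte integrin subunit, at 4.82 to 13.8 CPM, while the myeloid marker S100A8 was at 0 counts in all 8 libraries.

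The 8 genes are described in 3 sets, by how far the late replicate 1 libraries stood above the rest. NQO1 and HMOX1 stood several-fold higher in replicate 1 at 3 and 7 days than anywhere else. NFE2L2, KEAP1, TXNRD1 and SRXN1 were also highest in those libraries, by a smaller margin. GCLC and GCLM, which encode the enzyme that starts glutathione synthesis, varied little. GCLC was also highest in those libraries, but by only 1.01-fold. In the replicate 2 libraries of the same times all 8 genes stayed close to control. No gene of the 8 passed the test in any comparison (edgeR quasi-likelihood test, Benjamini-Hochberg adjusted p under 0.05), and none of the 12536 genes tested did.

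**Figure D1:**
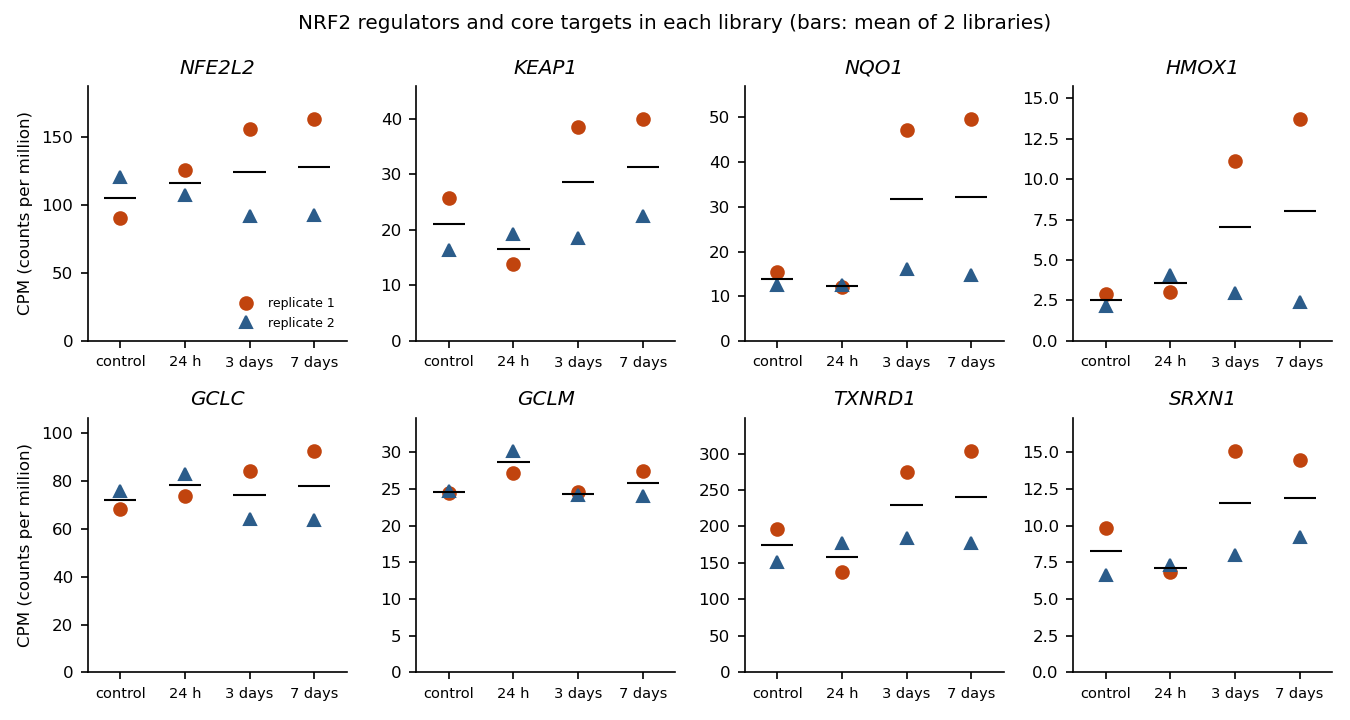
CPM of each of the 8 genes (y axis, from 0) in the 4 groups (x axis); circles are replicate 1, triangles replicate 2, and bars the mean of 2 libraries. As a ratio, the replicates at 3 and 7 days are farthest apart for HMOX1 (3.77-fold and 5.68-fold) and NQO1 (2.92-fold and 3.38-fold) and closest for GCLM; the panels differ in scale.

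NFE2L2, which encodes NRF2 itself, stood at 90.2 and 121 CPM in the control libraries (replicates 1 and 2), 126 and 107 at 24 h, 156 and 92.3 at 3 days, and 163 and 92.8 at 7 days. The replicate 1 libraries at 3 and 7 days were the highest of the 8, while replicate 2 at both times lay inside the control range. Its group means in CPM (SD, n = 2) were 106 ± 21.6 for control and 117 ± 12.8 for 24 h, then 124 ± 45.0 for 3 days and 128 ± 49.8 for 7 days. The log2 fold change against control was 0.14 ± 0.35 (SE) at 24 h, 0.23 ± 0.35 at 3 days and 0.28 ± 0.35 at 7 days, each smaller than its standard error. Without both late replicate 1 libraries the values at 3 and 7 days were -0.19 and -0.18.

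KEAP1, the adaptor through which NRF2 is ubiquitinated, was at 25.7 and 16.4 CPM in control, 13.9 and 19.2 at 24 h, 38.5 and 18.6 at 3 days, and 39.9 and 22.5 at 7 days. It was highest in replicate 1 at both late times, and its 3 day and 7 day groups each overlapped control. The log2 fold change was -0.35 ± 0.44 at 24 h, 0.44 ± 0.44 at 3 days and 0.56 ± 0.44 at 7 days. Without the late replicate 1 libraries it was -0.18 at 3 days and 0.10 at 7 days. Between the control libraries alone KEAP1 differed 1.57-fold.

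NQO1 encodes a quinone reductase and is the target gene most used as a readout of NRF2. It stood at 15.4 and 12.5 CPM in control, 11.96 and 12.6 at 24 h, 47.2 and 16.2 at 3 days, and 49.6 and 14.7 at 7 days. The 6 other libraries thus lay between 11.96 and 16.2 CPM, and the lower of the late replicate 1 libraries was 2.92-fold above the highest of them. In mean terms NQO1 went from 13.9 ± 2.04 CPM in control to 31.7 ± 21.9 at 3 days and 32.1 ± 24.7 at 7 days (SD, n = 2).

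The log2 fold change of NQO1 was 1.18 ± 0.62 at 3 days (95% interval -0.25 to 2.61, adjusted p = 0.843, edgeR) and 1.20 ± 0.62 at 7 days (-0.23 to 2.63, adjusted p = 0.851). At 3 days both libraries lay above both control libraries, as did 16.7% of the genes tested. At 7 days replicate 2, at 14.7 CPM, lay between the controls. Without the late replicate 1 libraries the log2 fold change of NQO1 was 0.22 at 3 days (95% interval -0.39 to 0.82) and 0.08 at 7 days (-0.54 to 0.69). The estimate at 24 h was -0.19 ± 0.62.

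HMOX1 encodes heme oxygenase 1, which breaks heme down to biliverdin, iron and carbon monoxide. It was the least abundant of the 8, with 33 and 21 counts in control, 30 and 44 at 24 h, 108 and 33 at 3 days, and 124 and 24 at 7 days. In CPM these were 2.90 and 2.15, 3.02 and 4.09, 11.1 and 2.94, and 13.7 and 2.41. The exact 95% Poisson intervals of the 2 high counts were 88.6 to 130 and 103 to 148, and that of the next highest count was 31.97 to 59.1. These intervals cover counting error only. The gap between replicates at 3 and 7 days, 3.77-fold and 5.68-fold in CPM, was the widest of any member.

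For HMOX1 the log2 fold change was 0.49 ± 0.86 at 24 h, 1.46 ± 0.85 at 3 days (adjusted p = 0.843, edgeR) and 1.66 ± 0.85 at 7 days (adjusted p = 0.851). Its lower 24 h library, at 3.02 CPM, exceeded the higher control, at 2.90 CPM, and the counting intervals of these libraries overlapped. Both 24 h libraries stood above both controls for 11.4% of the genes tested, among them HMOX1 and GCLM. Without both late replicate 1 libraries the estimate was 0.22 at 3 days and -0.07 at 7 days.

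GCLC encodes the catalytic subunit and GCLM the modifier subunit of glutamate-cysteine ligase, the rate-limiting enzyme of glutathione synthesis. GCLC stood at 68.3 and 75.9 CPM in control, 73.5 and 82.9 at 24 h, 84.0 and 64.0 at 3 days, and 92.5 and 63.5 at 7 days. Its late replicate 1 libraries were the highest of the 8, but the lower of them exceeded the highest other library by only 1.01-fold. Its log2 fold changes against control were 0.12 ± 0.25, 0.04 ± 0.25 and 0.11 ± 0.25 at 24 h, 3 days and 7 days. Without the late replicate 1 libraries the later values were -0.16 and -0.18.

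GCLM was at 24.5 and 24.7 CPM in control, 27.1 and 30.2 at 24 h, 24.6 and 24.2 at 3 days, and 27.5 and 24.0 at 7 days. It was the only member for which the late replicate 1 libraries were not both above the other 6, and its highest value was in a 24 h library. Its log2 fold change was 0.22 ± 0.21 at 24 h (95% interval -0.27 to 0.71), -0.01 ± 0.21 at 3 days (-0.50 to 0.48) and 0.07 ± 0.21 at 7 days (-0.42 to 0.56). Without the late replicate 1 libraries the later values were -0.02 and -0.03. The SD of log2 CPM over the 8 libraries was 0.12 for GCLM and 0.20 for GCLC, against 0.85 for NQO1 and 0.98 for HMOX1. These lay at the 3.67th, 17.7th, 94.5th and 96.7th percentile of the genes tested.

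TXNRD1, cytosolic thioredoxin reductase, had the most counts of the 8 at 1369 to 2751 per library. It stood at 197 and 151 CPM in control, 138 and 178 at 24 h, 275 and 184 at 3 days, and 304 and 178 at 7 days. The late replicate 1 libraries were highest, at 1.39-fold or more above the next library. The log2 fold change was -0.14 ± 0.33 at 24 h, 0.40 ± 0.33 at 3 days and 0.47 ± 0.33 at 7 days, and without those libraries 0.09 at 3 days and 0.04 at 7 days.

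SRXN1, sulfiredoxin, restores overoxidised peroxiredoxins. It was at 9.84 and 6.65 CPM in control, 6.84 and 7.35 at 24 h, 15.1 and 8.03 at 3 days, and 14.5 and 9.25 at 7 days. Replicate 2 at both late times lay within the control range, and the lower of the late replicate 1 libraries was 1.47-fold above the highest of the other 6. The log2 fold change was -0.22 ± 0.40 at 24 h, 0.48 ± 0.40 at 3 days and 0.52 ± 0.40 at 7 days, and without those libraries -0.03 and 0.17.

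**Figure D2:**
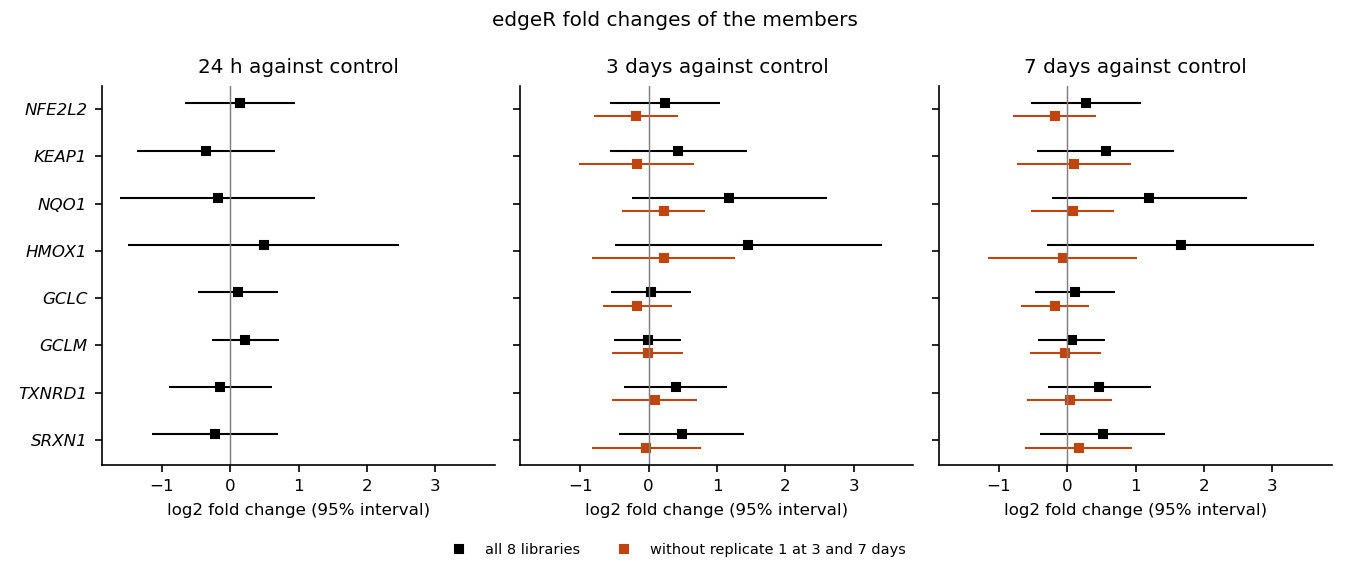
log2 fold change of each gene against control (x axis) with its 95% interval (lines), from edgeR; black squares use all 8 libraries and orange squares leave out replicate 1 at 3 and 7 days. Every interval includes 0, and without those libraries all 16 estimates at 3 and 7 days lie between -0.19 and 0.22.

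Against control, 4 of the 8 genes had a higher estimate at 24 h, 7 at 3 days and all 8 at 7 days, with median log2 fold changes of -0.01, 0.42 and 0.49. Over all genes tested the share with a higher estimate was 50.02%, 51.2% and 50.1%, and the medians were 0.00, 0.01 and 0.00. These comparisons share the control libraries. At an adjusted p under 0.05 edgeR called 0% of genes in each, and 0 of the 8. At an unadjusted p under 0.05 it counted 0.175% of genes at 24 h, 5.29% at 3 days and 4.94% at 7 days, and again 0 of the 8. DESeq2 and limma-voom also called none of the 8. A joint test of the 3 exposed groups gave adjusted p = 1.00 for each of the 8 (edgeR), and unadjusted p from 0.104 for NQO1 to 0.955 for GCLC; it called 0% of all genes, and 3.56% had an unadjusted p under 0.05.

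Set against the 24 h libraries in place of control, the late groups had their largest estimates for NQO1 and HMOX1, with NQO1 now first. NQO1 had log2 differences of 1.37 ± 0.62 at 3 days and 1.39 ± 0.62 at 7 days (adjusted p = 0.757 and 0.736, edgeR), with both late libraries above both 24 h libraries, as for 17% and 17.9% of genes. TXNRD1 and SRXN1 were separated in the same way at both times and KEAP1 at 7 days. TXNRD1 was at 0.54 ± 0.33 and 0.61 ± 0.33, SRXN1 at 0.70 ± 0.40 and 0.74 ± 0.40, and KEAP1 at 0.79 ± 0.44 and 0.92 ± 0.44. GCLM was lower than at 24 h in both 3 day libraries (-0.23 ± 0.21), as were 17.6% of genes. HMOX1 overlapped at both times, because its higher 24 h library, at 4.09 CPM, lay above replicate 2 at 3 and 7 days. Without both late replicate 1 libraries the differences at 3 and 7 days were 0.40 and 0.26 for NQO1, 0.23 and 0.17 for TXNRD1, 0.18 and 0.38 for SRXN1, and 0.17 and 0.45 for KEAP1. For GCLM they were -0.24 and -0.26, and for HMOX1 -0.27 and -0.56. edgeR called 0% of genes in either comparison, and 0% for 7 days against 3 days. At an unadjusted p under 0.05 the shares were 6.09% for 3 days and 5.96% for 7 days against 24 h, and 0 of the 8 genes in both. None of the 8 lay below both 24 h libraries at 7 days, against 19.1% of genes.

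For 7 days against 3 days all 8 genes overlapped, while both libraries were above for 5.24% of genes and below for 6.41%. HMOX1 was at 11.1 and 13.7 CPM in replicate 1 and at 2.94 and 2.41 in replicate 2, and NQO1 at 47.2 and 49.6 against 16.2 and 14.7. The log2 differences between the groups ran from 0.02 ± 0.61 for NQO1 to 0.20 ± 0.80 for HMOX1. Across all genes the replicate differences at 3 and 7 days correlated at 0.81, a description of these 4 libraries. In the early groups KEAP1, TXNRD1 and SRXN1 were instead higher in replicate 1 of control and replicate 2 of 24 h, NFE2L2 was higher in replicate 2 of control and replicate 1 of 24 h, and the correlation of replicate differences over all genes was -0.60.

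Each gene can also be placed among all genes tested in a library. Relative to the control mean, HMOX1 was 2.07 higher on the log2 scale in replicate 1 at 3 days and 2.37 at 7 days, at the 99.4th and 99.7th percentile of genes. NQO1 was 1.75 and 1.82 higher, at the 98.9th and 99.2nd percentile. KEAP1 (91.4 and 93.2), SRXN1 (90.9 and 90.6), TXNRD1 (84.7 and 90.3) and NFE2L2 (81.2 and 84.6) followed as percentiles, then GCLC (63.3 and 72.1) and GCLM (50.3 and 60.7). Some control libraries stood as high by this measure: KEAP1 was at the 94.2nd, SRXN1 at the 91.8th and TXNRD1 at the 84.3rd percentile in control replicate 1, and NFE2L2 at the 84.6th in control replicate 2, on smaller log2 differences. HMOX1 reached the 97.5th percentile in replicate 2 at 24 h. In replicate 2 the 8 genes lay between the 30.2nd and 75.4th percentile at 3 days and between the 28.4th and 73.6th at 7 days. Both late replicate 1 libraries lay above the other 6 for 7 of the 8 genes and below them for none. Among all genes tested the share above was 27.1% and the share below 26.4%, so that most genes separated these libraries from the rest.

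**Figure D3:**
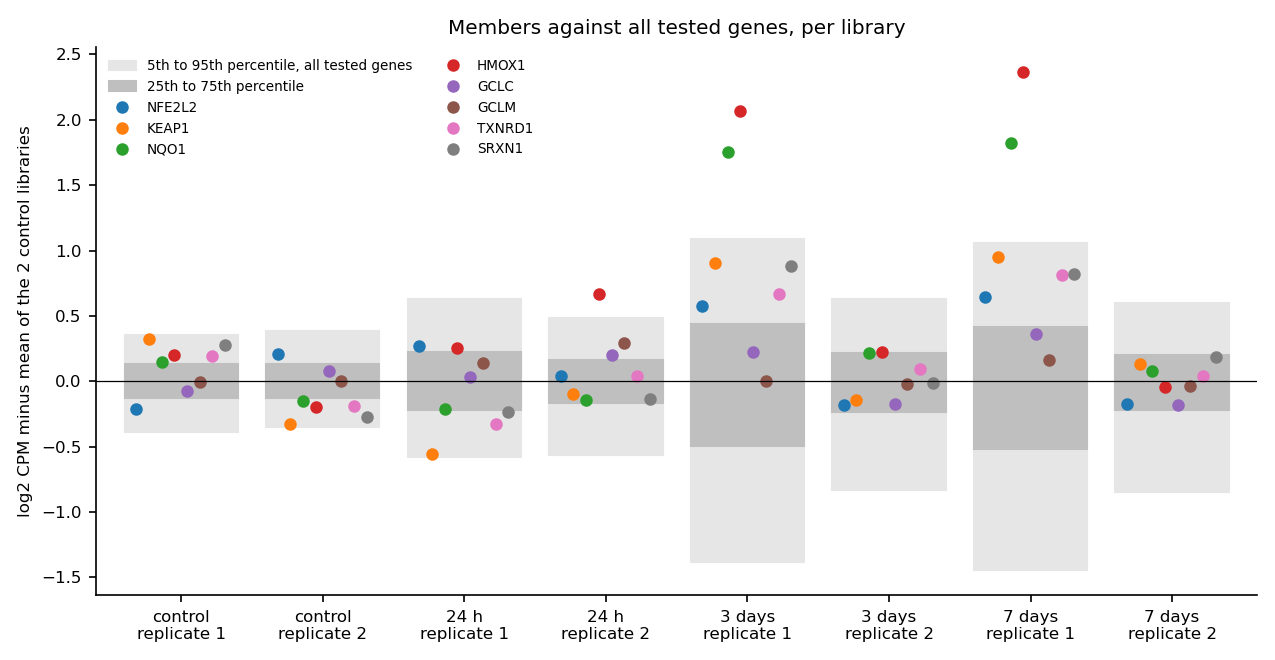
log2 CPM minus the mean of the control libraries (y axis) in each of the 8 libraries (x axis), for the 8 genes (points) over the 5th to 95th (light) and 25th to 75th (dark) percentile of all genes tested. In replicate 1 at 3 and 7 days HMOX1 and NQO1 lie above the light band, which is itself wider there than in the other libraries.

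A ratio of 2 genes within a library does not depend on library scaling. GCLC was taken as the base after its values were seen, because it varied little. GCLM varied less (SD of log2 CPM 0.12, against 0.20 for GCLC) but was not taken as the base. NQO1 had 22.5 and 16.5 counts per 100 GCLC counts in control, 16.3 and 15.2 at 24 h, 56.2 and 25.2 at 3 days, and 53.6 and 23.1 at 7 days. On this measure all 4 late libraries were above all 4 early ones. Replicate 2 exceeded the higher control by less than the controls differed from each other. GCLC, the base, was at its lowest in replicate 2 at 3 and 7 days (64.0 and 63.5 CPM). In CPM, NQO1 in replicate 2 at 7 days (14.7) was below control replicate 1 (15.4). Relative to GCLM the separation of NQO1 does not hold. NQO1 and GCLM had 175 and 279 counts in control replicate 1, and 146 and 239 in replicate 2 at 7 days. The share of all genes that separate on the ratio to GCLC was not computed. HMOX1 had 4.24 and 2.83 in control, 4.10 and 4.94 at 24 h, 13.2 and 4.60 at 3 days, and 14.8 and 3.797 at 7 days. GCLM had 35.9 and 32.5 in control, 36.9 and 36.5 at 24 h, 29.3 and 37.8 at 3 days, and 29.7 and 37.8 at 7 days. On this ratio the late replicate 1 libraries were its lowest. In CPM GCLM was not lowest there, at 24.6 and 27.5, while GCLC was at its highest, at 84.0 and 92.5. No test of these ratios was run.

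**Figure D4:**
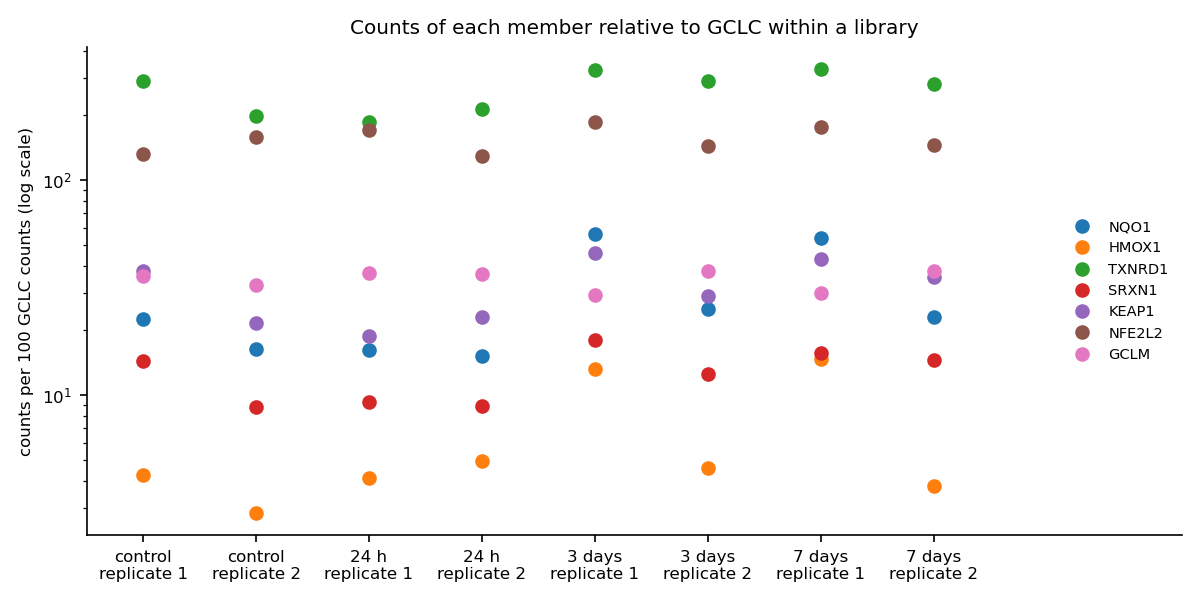
Counts of each gene per 100 GCLC counts (y axis, log scale) in each of the 8 libraries (x axis). NQO1 and HMOX1 stand highest in replicate 1 at 3 and 7 days. The GCLM ratio is lowest there, at 29.3 and 29.7, where GCLC itself was highest in CPM.

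Levels can be compared between genes only per length. With exon lengths of protein-coding transcripts in GENCODE release 29, which is not the annotation of the counts, the control levels were 39.1 and 30.0 CPM per kb for TXNRD1, 19.9 and 26.7 for NFE2L2 and 10.7 and 11.9 for GCLC. KEAP1 (8.16 and 5.19), GCLM (5.00 and 5.03), NQO1 (4.92 and 3.998), SRXN1 (3.65 and 2.47) and HMOX1 (1.59 and 1.18) followed. TXNRD1, NFE2L2 and GCLC were thus separated from each other and from the rest in both control libraries. KEAP1 was above GCLM in both libraries, but the gap in the second was smaller than the spread between its own libraries. GCLM and NQO1 were close in the first control library, and NQO1 and SRXN1 were separated, as were SRXN1 and HMOX1. In the same annotation NFE2L2 overlaps AGPS on the opposite strand, and TXNRD1 overlaps EID3 on the same strand. With no strand setting given, reads of overlapping genes are uncertain. AGPS was at 84.1 and 102 CPM in replicate 1 at 3 and 7 days, lower than the 125 and 109 CPM of replicate 2, while NFE2L2 was higher in replicate 1. EID3 had 35 to 61 counts in any library, against at least 1369 for TXNRD1.

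The genes closest in pattern were found as the smallest root mean square difference of centred log2 CPM over the 8 libraries, among genes with at least 10 CPM. For HMOX1 they were BLOC1S2 (0.19), TOB1 (0.20) and CDKN1A (0.23). CDKN1A, the p21 inhibitor of cyclin-dependent kinases, was at 103 and 79.2 CPM in control, 80.2 and 103 at 24 h, 387 and 73.9 at 3 days, and 366 and 63.6 at 7 days. For NQO1 they were PIDD (0.12), a p53-induced death domain gene, and the ribosomal protein genes RPS2 (0.13) and RPL13A (0.13). RPS2 and RPL13A have near-identical copies in the genome and are uncertain. For comparison NQO1 and HMOX1 themselves differed by 0.31.

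KEAP1 was closest to FAM89B (0.08), POLR1E (0.09) and ECHS1 (0.10), SRXN1 to TUFM (0.06), ADI1 (0.07) and MRPS18B (0.07), and TXNRD1 to ZDHHC5 (0.04), PTDSS1 (0.05) and HSP90AB1 (0.05). TUFM, ECHS1 and MRPS18B encode mitochondrial proteins and HSP90AB1 a cytosolic chaperone. NFE2L2 was closest to RNF6 (0.08), SMAD5 (0.08) and ZNF441 (0.08). Among the members the closest pairs were TXNRD1 with SRXN1 (0.13), KEAP1 with SRXN1 (0.13) and GCLC with GCLM (0.14), and the farthest HMOX1 with GCLM (0.89). NFE2L2 was closer to GCLC (0.18) than to TXNRD1 (0.32), SRXN1 (0.36) or KEAP1 (0.44). Likeness was not computed for GCLC and GCLM against other genes, because their SD was below the median of 0.28 for genes of at least 10 CPM. The 8 libraries share 1 cell line, and these likenesses say nothing about a shared regulator.

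Other genes of the pathway gave no call in any of the 3 comparisons with control (edgeR, 0% of genes called). At 24 h higher and lower estimates numbered 11 and 14 for regulators and partners, 6 and 4 for glutathione and thioredoxin genes, 2 and 4 for NADPH supply genes, 3 and 4 for heme and iron genes, 2 and 10 for detoxification and export genes, and 3 and 2 for paralogs. The median log2 fold changes at 24 h were -0.02, 0.02, -0.16, -0.01, -0.17 and 0.04 in that order, against 0.00 over all genes, 50.02% of which had a higher estimate. Of 27 regulators and partners of NRF2, 25 were tested. Higher estimates numbered 17 at 3 days and 15 at 7 days, with medians of 0.07 and 0.15 on the log2 scale, against 51.2% and 50.1% of all genes and medians of 0.01 and 0.00. CUL3, the scaffold of the KEAP1 ligase, was at 0.30 ± 0.23 at 3 days and 0.39 ± 0.23 at 7 days, and RBX1, its RING subunit, at 0.42 ± 0.23 and 0.27 ± 0.23. For both, each late replicate 1 library was above the other 6, as for 13 of the 25 genes and 27.1% of all genes tested. For 5 of the 25, and 26.4% of all genes, both lay below. NFE2L3, a relative of NRF2, went the other way at -0.42 ± 0.33 and -0.50 ± 0.33, with 29.8 and 28.8 CPM in the late replicate 1 libraries against 48.3 to 70.2 in the other 6.

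Among glutathione and thioredoxin genes, 10 of 12 were tested and 7 had higher estimates at both late times, with medians of 0.30 and 0.28. SESN2, a stress-induced sestrin, stood at 180 and 147 CPM in replicate 1 at 3 and 7 days and at 24.6 to 38.0 in the other 6 libraries (log2 fold changes 1.59 ± 0.93 and 1.33 ± 0.93). SLC3A2, the heavy chain of cystine and amino acid exchangers, stood at 127 and 126 CPM against 49.6 to 66.7 in the other 6 (0.69 ± 0.43 and 0.67 ± 0.43). Late replicate 1 lay above the other 6 in this way for 27.1% of genes. SLC7A11, of the same list, went the other way (-0.61 ± 0.70 and -0.71 ± 0.70). It stood at 30.1 and 30.15 CPM in the late replicate 1 libraries, below the 32.2 to 143 of the other 6, as for 26.4% of genes. GSR, glutathione reductase, differed from these in that both replicates were alike: 95.8 and 91.1 CPM in control, 102 and 89.1 at 24 h, 114 and 115 at 3 days, and 112 and 126 at 7 days. All 4 late libraries of GSR were above all 4 early ones, as for 5.93% of genes tested, at 0.29 ± 0.19 and 0.35 ± 0.19, with adjusted p = 0.843 and 0.851 (edgeR).

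Of 6 NADPH supply genes, 4 had higher and 2 lower estimates at 3 and 7 days (medians 0.10 and 0.14). TKT, transketolase, was at 53.9 and 55.7 CPM in control, 151 and 64.5 at 3 days and 138 and 65.9 at 7 days, so that all 4 late libraries were above control, with replicate 1 far higher; 16.7% of genes were above both controls at 3 days and 16.6% at 7 days. TALDO1, transaldolase, was at 0.36 ± 0.27 and 0.26 ± 0.27. ME1, malic enzyme 1, was lower at -0.81 ± 0.45 and -0.77 ± 0.45, from 12.5 and 25.2 CPM in control to 8.74 and 12.7 at 3 days and 7.84 and 14.2 at 7 days, and its groups overlapped.

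Of 8 heme and iron genes, 7 were tested, and 4 had higher estimates at 3 and 7 days (medians 0.07 and 0.34). The ferritin light chain gene FTL was at 772 and 659 CPM in control, 2150 and 791 at 3 days, and 1879 and 616 at 7 days. The ferritin heavy chain gene FTH1 was at 348 and 512, 887 and 279, and 836 and 356. Both have many processed copies and are uncertain. Both were highest in the late replicate 1 libraries, as were 27.1% of genes, while in replicate 2 FTL was at 791 and 616 CPM, next to its controls. FTH1 in replicate 2 was below both controls at 3 days (279 CPM) and near the lower control at 7 days (356 CPM). ABCB6, a porphyrin transporter, was at -0.03 ± 0.28 and -0.23 ± 0.28.

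Of the detoxification and export genes 12 of 22 were tested, since AKR1B10, AKR1C1, AKR1C2, AKR1C3 and 6 others had too few counts. Of the 12, 6 had higher estimates at 3 days and 4 at 7 days (medians -0.01 and -0.19). AKR1B1, an aldo-keto reductase, stood at 46.0 and 35.2 CPM in control, 92.4 and 54.9 at 3 days, and 86.1 and 53.7 at 7 days, and all 4 late libraries exceeded all 4 early ones, again as for 5.93% of genes. Its log2 fold changes were 0.86 ± 0.33 and 0.78 ± 0.33 (adjusted p = 0.843 and 0.851, edgeR). ABCC5, an export pump, was at -0.42 ± 0.24 and -0.64 ± 0.24, and EPHX1, microsomal epoxide hydrolase, had at most 3.91 CPM. Among paralogs of the members HMOX2, the constitutive heme oxygenase, was at 0.29 ± 0.54 and 0.59 ± 0.54, and NQO2 at 0.75 ± 0.56 and 1.24 ± 0.55 with at most 3.75 CPM.

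**Figure D5:**
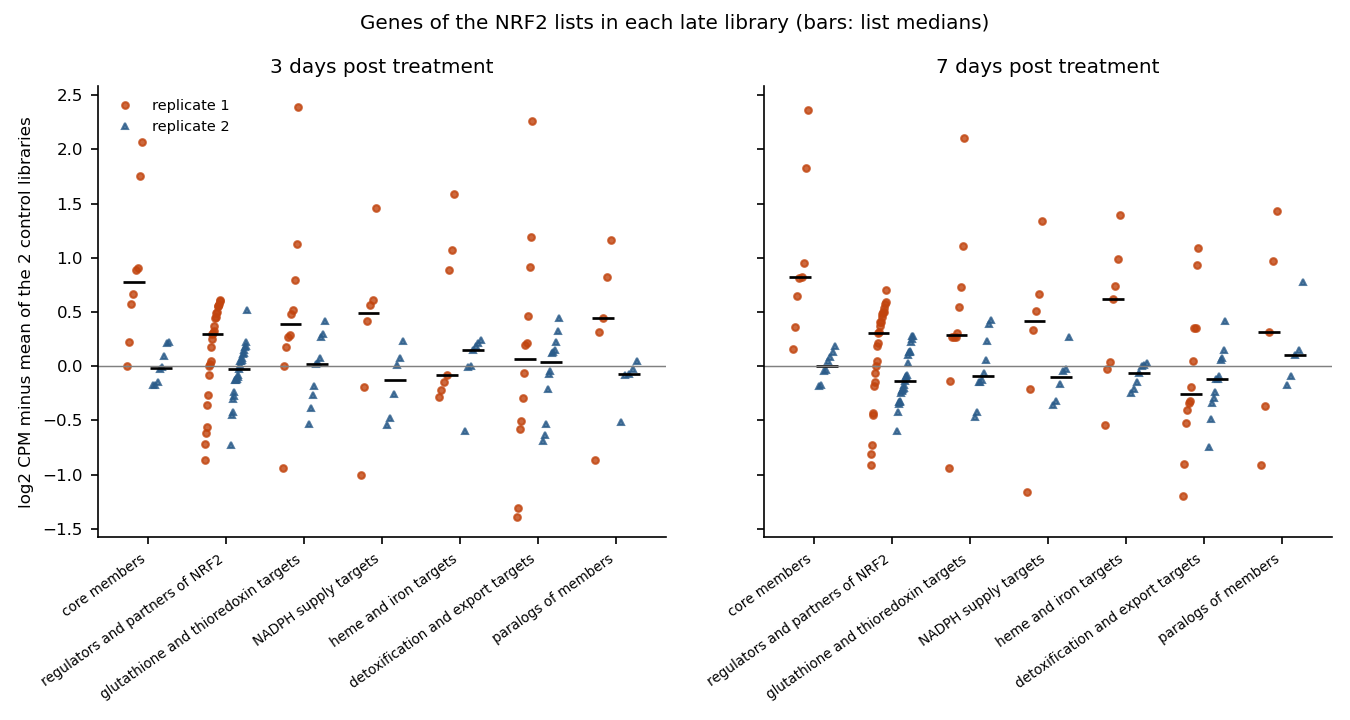
log2 CPM minus the control mean (y axis) of each tested gene of the NRF2 lists (x axis) at 3 days (left) and 7 days (right); circles are replicate 1, triangles replicate 2, and bars list medians. The 8 core genes have medians of 0.78 and 0.82 in replicate 1 and of -0.02 and 0.00 in replicate 2.

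The lists did not all divide by replicate in the same way. In replicate 1 at 3 and 7 days the medians relative to the control mean were 0.78 and 0.82 for the 8 core genes, 0.30 and 0.30 for regulators and partners, 0.39 and 0.29 for glutathione and thioredoxin genes, 0.49 and 0.42 for NADPH supply genes, and 0.44 and 0.32 for paralogs. In replicate 2 the same lists were at -0.02 and 0.00, -0.03 and -0.14, 0.02 and -0.09, -0.12 and -0.10, and -0.07 and 0.10. Heme and iron genes were at -0.08 and 0.62 in replicate 1 and at 0.15 and -0.07 in replicate 2, a median over 7 genes with values on both sides of 0: FTL and FTH1 were higher in replicate 1 at both times. Detoxification and export genes were at 0.07 and -0.26 in replicate 1 and at 0.04 and -0.12 in replicate 2. The median of all genes tested was between -0.02 and 0.00 in each of these 4 libraries.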

How the data were processed

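RNA sequencing counts of 8 libraries (4 groups of 2) were used. The values are read counts per gene symbol as deposited, 1 table per library, with no pooling. Per the submitters' processing notes, Trim Galore, Bowtie2, SAMtools, DESeq2 1.8.1, R 3.2.3 and the builds GRCh37 and hg19 were used; for the counter, the strand setting and the annotation the entry is "not given in the sources used here". The 5 summary entries that name no gene took 42.6% to 57.5% of each table and were left out. Genes were kept with filterByExpr of edgeR 4.0.16 (minimum count 10, minimum total 15), scaled with TMM, and tested with glmQLFit and glmQLFTest over all 8 libraries with 1 coefficient per group, so that the spread is shared; Benjamini-Hochberg adjustment ran over the 12536 genes tested, with a threshold of 0.05. The prior count of log2 CPM was 2; standard errors came from the F statistic, and 95% intervals from the t distribution on the residual and prior degrees of freedom (4 and 4.09). CPM per library is the deposited count over the scaled library size. The procedure was tested on simulated data.

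The members and gene lists were chosen with earlier results of these data known. All 8 members are named; of each other list, 3 genes are named by smallest joint p (none passed the threshold). Some values outside this rule were chosen after they were seen. They are those of ITGAM, S100A8, CR2, CD40, CD79A, CD79B, BLK, MS4A1, SLC7A11, AGPS, EID3 and the genes at or near 0 counts. As alternatives, library sizes were scaled by RLE or upper quartile, with unscaled sizes for levels; tests were DESeq2 1.42.0, limma-voom (limma 3.58.1), robust empirical Bayes and a block on replicate number; the filter was dropped or set to 50 counts in 2 libraries; and the fit was limited to the 2 groups in question, or left out each library or both late replicate 1 libraries. A crossed block for control and 24 h was chosen after seeing the data.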

Additional observations from a re-analysis of the deposited data

How the results depend on the processing

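Of the 8 genes, 0 were called under any alternative, in any comparison; the lowest adjusted p was 0.255 (KEAP1, 24 h against control, crossed block). For all genes edgeR called 0 in each comparison. DESeq2 on all genes called 9 at 3 days and 15 at 7 days against control, 19 and 22 against 24 h, and 65 in the joint test. edgeR with no filter called 11, 16, 21, 25 and 67 in the same comparisons, over 18243 genes in place of 12536. The replicate number as a block called 0 in every comparison and moved the log2 fold change of NQO1 at 3 days from 1.18 to 1.01 and that of HMOX1 from 1.46 to 1.26. Replicate numbers are not shown to pair the samples: replicate differences correlated across genes at -0.60 between control and 24 h and at 0.81 between 3 and 7 days. With 24 h numbers crossed, a fit of control and 24 h alone called 186 genes, and with numbers as labelled 0. The crossing was chosen after seeing these same libraries, so the 186 calls are not read as a result. Fits with 1 library left in a group assume that it varies like the other groups.

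Leaving out both late replicate 1 libraries turned these log2 differences. Against control at 3 days they became -0.19 for NFE2L2, -0.18 for KEAP1, -0.16 for GCLC and -0.034 for SRXN1, and at 7 days -0.18 for NFE2L2, -0.066 for HMOX1, -0.18 for GCLC and -0.029 for GCLM. Against 24 h they became -0.33 for NFE2L2 at both times, and -0.27 and -0.56 for HMOX1 at 3 and 7 days. For 7 against 3 days they became -0.14 for NQO1, -0.29 for HMOX1, -0.014 for GCLC, -0.013 for GCLM and -0.054 for TXNRD1. Differences near 0 also turned with the scaling or tool: GCLC at 3 days against control was -0.00471 with upper-quartile scaling, and at 7 days against 24 h 0.00703 with RLE, 0.00952 with DESeq2 and 0.00413 with no filter. NQO1 at 7 against 3 days was -0.00286 with upper-quartile scaling, -0.030 with limma-voom and -0.00415 with the block. The cause was not tested.

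With each library left out in turn, the ranges that crossed 0 were as follows. For 24 h against control they were -0.051 to 0.37 for NFE2L2, -0.64 to 0.012 for KEAP1, -0.34 to 0.061 for TXNRD1 and -0.47 to 0.092 for SRXN1. For 3 days they were -0.19 to 0.56 for NFE2L2, -0.18 to 0.87 for KEAP1, -0.17 to 0.22 for GCLC and -0.041 to 0.87 for SRXN1. For 7 days they were -0.19 to 0.65 for NFE2L2, -0.070 to 2.45 for HMOX1, -0.18 to 0.38 for GCLC and -0.034 to 0.18 for GCLM. NQO1 kept its sign, at 0.21 to 1.76 at 3 days and 0.07 to 1.85 at 7 days. Each lowest value came without replicate 1 of that time. TXNRD1 also kept its sign at both times, as did HMOX1 and GCLM at 3 days and KEAP1 and SRXN1 at 7 days. For 3 days against 24 h the ranges that crossed 0 were -0.34 to 0.42 for NFE2L2, -0.27 to 1.64 for HMOX1 and -0.29 to 0.10 for GCLC. For 7 days against 24 h they were -0.33 to 0.50, -0.56 to 1.95 and -0.30 to 0.26 for the same genes. For 7 against 3 days they were -0.42 to 0.47 for NFE2L2, -0.34 to 0.75 for KEAP1, -1.11 to 0.99 for NQO1, -1.53 to 1.44 for HMOX1, -0.22 to 0.33 for GCLC, -0.021 to 0.18 for GCLM, -0.37 to 0.41 for TXNRD1 and -0.35 to 0.56 for SRXN1. HMOX1, with 21 to 124 counts, is limited most by depth.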
